A study of Homo sapiens with 16 samples.

Results

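The genes described here are 9 genes grouped as targets of the tumour suppressor p53: MDM2, MDM4, CDKN1A, GADD45A, GADD45B, RRM2B, SESN1, ZMAT3 and FDXR. They were chosen by name, as the rows whose Ensembl identifier maps to these symbols, and all 9 were found among the 62700 genes of the deposited table. The samples were 16 RNA-seq libraries of OCI-AML3, an established acute myeloid leukemia (AML) cell line that is known to carry wild-type p53. Cells were left untreated (Untreated, 4 libraries) or were treated for 3 h with 1 of 4 regimens of 3 libraries each. These were the pan-RAR agonist ATRA, the RARA-selective agonist Am80 (AM80 in the labels), and either retinoid together with LSDi-MB3, which is the LSD1 inhibitor GSK-LSD1 plus the GCN5 inhibitor MB3. The study's methods give concentrations of 0.1 µM for ATRA, Am80 and GSK-LSD1 and 100 µM for MB3 in cell lines. The inhibitors were always combined with a retinoid in these libraries, so a response to them could be read only on top of one. All groups share 1 cell line, and the labels number repeats without saying that they are separate cultures. The p-values therefore measure the spread between these libraries, which may be technical.

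p53 is a transcription factor that is held at a low level by the ubiquitin ligase MDM2 and its partner MDM4, and that accumulates when cells meet DNA damage or other stress. It binds a site made of a pair of half-sites near its target genes. Among the targets are genes for cell cycle arrest (CDKN1A, which encodes p21), DNA repair and nucleotide supply (RRM2B), metabolism and redox control (SESN1, FDXR), RNA stability (ZMAT3) and MDM2 itself, which closes a negative feedback loop. Many of the targets also answer to other transcription factors, and their RNA is no direct measure of p53.

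Values are normalized counts, in which the reads of a library are divided by its size factor. Between 11963898 and 33789718 reads were counted per library, and each of the 9 genes had between 194 and 9496 reads in every library, so that all 9 passed the filter of a mean of at least 10 normalized counts. The myeloid markers CD33, LYZ, SPI1, CEBPA, HOXA9 and MEIS1 were well detected and MPO was low, whereas the lymphoid and erythroid markers CD3D, CD2, MS4A1 and HBA1 had no read in any library. One library stood apart. Untreated replicate 4 lay on the log2 scale 0.68 below the mean of the other untreated libraries for MDM2, 0.85 below for MDM4 and 0.57 below for ZMAT3, the longest transcripts among the 9, and 0.26 to 0.36 above it for CDKN1A, GADD45A, GADD45B and FDXR, the shortest. Over all genes, it was lower by a median of 0.10 for genes with over 5 kb of exon and higher by 0.20 for genes under 2 kb. Many of the values against the untreated cells, though not all, are therefore also given without it. None is given for GADD45A, for which it was the highest untreated library.

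The annotated promoters were searched for letters that match the p53 half-site consensus next to a start, and binding of p53 was not measured. RefSeq promoter windows (GRCh38.p14, 250 bases before to 50 bases after a start) were matched to 7 of the 9 genes, with 14 windows in all. GADD45A and RRM2B had no window. A pair of p53 half-site consensus matches on either strand, with at most 2 mismatches in all and at most 13 bases between them, was found for MDM2, SESN1 and FDXR. Such a pair was also present in 7.82% of all 35116 windows, so that a match by itself is a description. The pair in MDM2 is shown because MDM2 gave the largest response to the combinations among the 9 genes and because its half-sites abut with no base between them. The 60 bases shown span chr12:68808903-68808962 (GRCh38.p14, plus strand), upstream of the second start of MDM2, in sequence where the GENCODE annotation places an MDM2 transcript but no exon, that is, in an intron. Capitals mark the pair of half-sites.
MDM2 internal promoter: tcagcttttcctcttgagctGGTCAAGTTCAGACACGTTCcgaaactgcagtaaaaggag
The pair lies 94 to 75 bases upstream of the start at position 68809017. The windows at the first MDM2 starts and those of CDKN1A, MDM4, ZMAT3 and GADD45B held no such pair, which says only that these letters are not in these windows. The retinoid receptor half-site AGGTCA, searched on both strands, was found in 1 of the 14 windows, an MDM2 window, and in 13.8% of all windows. Counts were made per gene, so that transcripts from the first and the second MDM2 start cannot be told apart.

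Before treatment, the 9 genes were expressed over a range of levels. Per kb of annotated exon (GENCODE v29), the untreated cells held 448 ± 24.6 normalized counts of RRM2B and 440 ± 41.7 of CDKN1A (mean ± SD, n = 4), which did not differ beyond their spread. MDM2 followed at 270 ± 56.3 per kb, GADD45B at 257 ± 33.9, FDXR at 235 ± 33.7, SESN1 at 231 ± 15.4 and MDM4 at 218 ± 54.5. None of these neighbours differed beyond the spread of all untreated libraries. Both readings depend on Untreated replicate 4. Without it, RRM2B (447 to 477 per kb) lay above CDKN1A (409 to 427) without overlap. MDM2 (291 to 305) likewise lay above GADD45B (229 to 255), and MDM4 (242 to 249) above SESN1 (213 to 240). GADD45B, FDXR (200 to 233) and SESN1 still overlapped. The genes were read in the same libraries, and differences between genes were not tested. GADD45A was lower, at 155 ± 23.2 per kb, and ZMAT3 was lowest, between 36.5 and 58.2 per kb. These levels depend on the annotated exon length, which is the union over all transcripts and runs from 2069 bases for GADD45A to 13284 for MDM2. With the combinations, MDM2 reached 596 ± 28.7 per kb with ATRA and 550 ± 18.9 per kb with Am80 (n = 3 each).

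**Figure D1:**
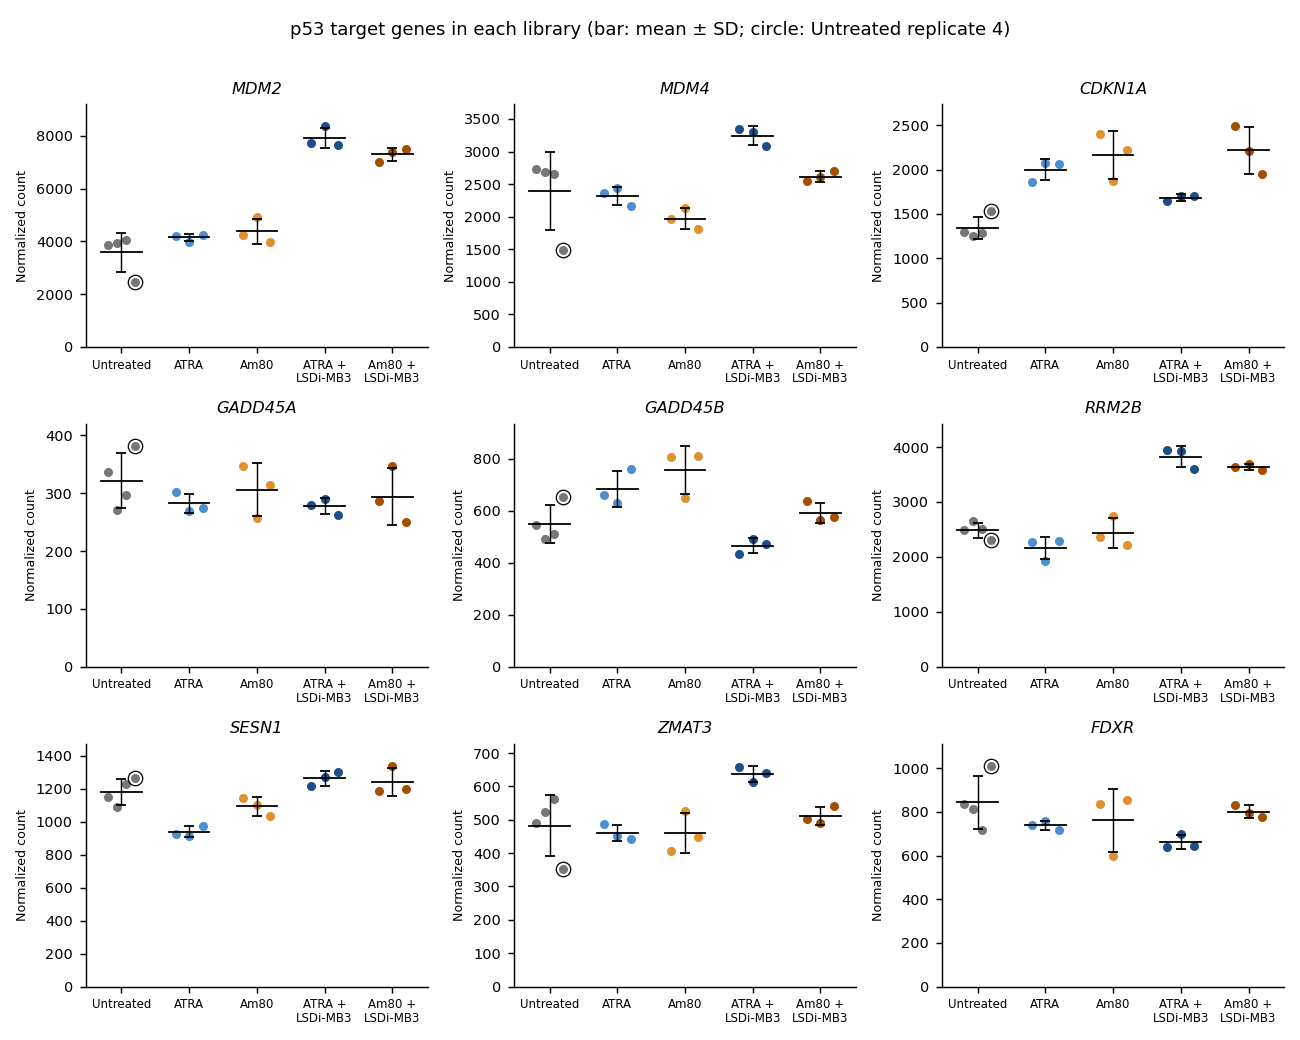
Normalized count (y axis, linear from 0) of the 9 p53 target genes in each library, by group (x axis); points are libraries, the horizontal line and bars are the group mean ± SD, and the circled point is Untreated replicate 4. MDM2 and RRM2B stood higher in all 6 combination libraries than in any other library, and CDKN1A stood higher in all 12 treated libraries than in any untreated one.

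Retinoid alone raised CDKN1A and GADD45B and left most of the other targets within the spread. With ATRA, 2 of the 9 genes were called higher (CDKN1A and GADD45B) and 1 lower (SESN1) at an adjusted p under 0.05 by limma, while 12.5% of the 14643 genes tested were called higher and 12.1% lower. With Am80, the same 2 were called higher and none lower, against 15.4% and 13.4% of all genes. The median log2 fold change of the 9 genes was -0.05 with ATRA and -0.05 with Am80, beside -0.02 and -0.01 over all genes tested. Both comparisons share the untreated libraries.

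On adding the inhibitors to either retinoid, MDM2 and RRM2B had the largest rises among the 9 genes. Against Untreated, CDKN1A rose more than RRM2B with Am80 plus LSDi-MB3 (0.72 beside 0.55 on the log2 scale). More genes were called over the whole table with the combinations than with a retinoid alone. ATRA plus LSDi-MB3 against Untreated gave 5 genes higher (MDM2, MDM4, CDKN1A, RRM2B and ZMAT3) and 1 lower (FDXR), where 30.2% of all genes were called higher and 30.0% lower. Am80 plus LSDi-MB3 gave 3 higher (MDM2, CDKN1A and RRM2B) and none lower, where 28.0% and 26.6% of all genes were called. Adding the inhibitors to ATRA gave 5 higher (MDM2, MDM4, RRM2B, SESN1 and ZMAT3) and 2 lower (CDKN1A and GADD45B), beside 24.9% and 24.4% of all genes. Adding them to Am80 gave 3 higher (MDM2, MDM4 and RRM2B) and 1 lower (GADD45B), beside 19.9% and 19.5%. The median of the 9 genes on adding the inhibitors was 0.43 with ATRA and 0.16 with Am80, beside -0.02 and -0.01 over all genes. Scaled to total reads instead of size factors, the median of all genes moved to -0.15 and -0.19 in the combinations against Untreated, and the values of the 9 genes moved down with it. Under that scaling, MDM4 (0.33, adjusted p = 0.0646), CDKN1A (0.18, adjusted p = 0.0657) and ZMAT3 (0.27, adjusted p = 0.0724) were no longer called with ATRA plus LSDi-MB3 against Untreated. GADD45A was called lower with both combinations (-0.35, adjusted p = 0.0145, on ATRA and -0.31, adjusted p = 0.027, on Am80), GADD45B with ATRA plus LSDi-MB3 (-0.38, adjusted p = 0.00142) and FDXR with Am80 plus LSDi-MB3 (-0.25, adjusted p = 0.0475).

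**Figure D2:**
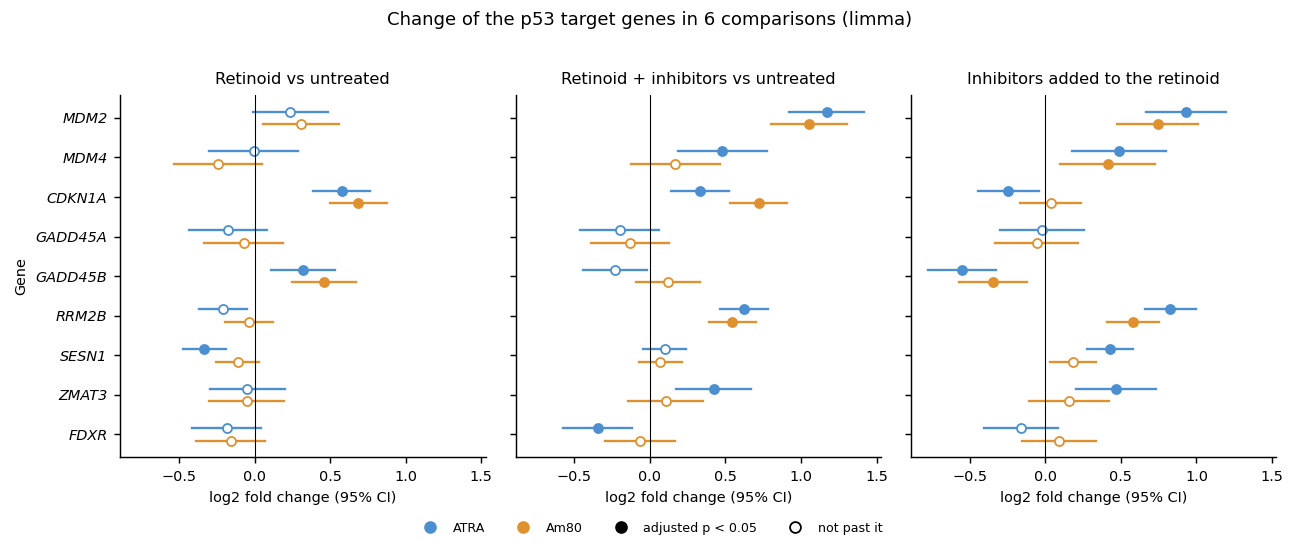
Log2 fold change (x axis) of each p53 target gene (y axis) with its 95% confidence interval from limma, for ATRA (blue) and Am80 (orange), in retinoid against untreated cells, combination against untreated cells, and combination against retinoid; filled points passed an adjusted p of 0.05. MDM2 and RRM2B lay to the right of 0 in the middle and right panels with both retinoids, while CDKN1A did so in the left and middle panels.

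MDM2, the ubiquitin ligase that marks p53 for degradation, showed the largest change of the 9 genes. Its normalized counts were 3863, 3957, 4058 and 2472 in the untreated libraries, 4221, 3995 and 4234 with ATRA, and 4247, 4917 and 3966 with Am80. With the inhibitors they were 7735, 8354 and 7660 on ATRA and 7018, 7397 and 7494 on Am80. Every combination library was thus above every library without inhibitors, and the 2 combinations differed little from each other. Against Untreated, MDM2 rose 2.25-fold with ATRA plus LSDi-MB3 (log2 fold change 1.17 ± 0.12 (SE), limma adjusted p = 6.31e-08) and 2.07-fold with Am80 plus LSDi-MB3 (1.05 ± 0.12, adjusted p = 2.7e-07). Against the retinoid alone, it rose 1.91-fold on ATRA (adjusted p = 7.12e-06) and 1.67-fold on Am80 (adjusted p = 0.000107). The retinoids alone gave 0.24 (adjusted p = 0.164) and 0.31 (adjusted p = 0.0595), which did not pass. Without Untreated replicate 4, these last 2 values were 0.07 and 0.14, and the combinations were still called (adjusted p = 1.59e-11 and 1.24e-10). Without Untreated replicate 2 or 3 or Am80 replicate 3, the Am80 value of all libraries was called, with adjusted p-values for it between 0.00485 and 0.251 over all alternatives. MDM2 shares exon positions with AC025423.2 on its own strand and with AC025423.4 and CPM on the other, and how the counting treated strand is not stated.

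MDM4, which inhibits p53 and pairs with MDM2, changed less and depended on the untreated library that stood apart. It had 2736, 2685, 2660 and 1496 normalized counts in Untreated, 2365, 2433 and 2157 with ATRA, and 1961, 2139 and 1809 with Am80. The combinations gave 3344, 3306 and 3086 on ATRA and 2541, 2602 and 2701 on Am80. Each combination thus lay above its retinoid without overlap. Only ATRA plus LSDi-MB3 lay above all the untreated libraries. MDM4 rose by 0.49 ± 0.15 on adding the inhibitors to ATRA (adjusted p = 0.0112) and by 0.41 ± 0.15 on adding them to Am80 (adjusted p = 0.0344), on the log2 scale. The second of these calls was lost without any 1 of Am80 replicates 1 and 3 and of the 3 libraries of Am80 plus LSDi-MB3, with adjusted p-values between 1.52e-05 and 0.179 over the alternatives. Against Untreated, ATRA plus LSDi-MB3 gave 0.48 (adjusted p = 0.00589). The retinoids alone gave -0.01 with ATRA (adjusted p = 0.983) and -0.24 with Am80 (adjusted p = 0.212), but without Untreated replicate 4 MDM4 was called lower with both, at -0.22 (adjusted p = 0.0141) and -0.45 (adjusted p = 6.44e-06), and the rise with ATRA plus LSDi-MB3 was 0.27 (adjusted p = 0.00105). Relative to the 3 untreated libraries that lay together, MDM4 was thus lower with both retinoids and higher with ATRA plus LSDi-MB3, while Am80 plus LSDi-MB3 stood at -0.04 (adjusted p = 0.592).

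CDKN1A encodes p21, the inhibitor of cyclin-dependent kinases through which p53 arrests the cell cycle. It had 1301, 1249, 1289 and 1530 normalized counts in Untreated, 1859, 2073 and 2061 with ATRA, and 2403, 1872 and 2223 with Am80. With the inhibitors it had 1642, 1704 and 1706 on ATRA and 2485, 2214 and 1952 on Am80. All treated groups were above all untreated libraries, and ATRA plus LSDi-MB3 was the lowest of them. CDKN1A rose 1.49-fold with ATRA (log2 fold change 0.58 ± 0.09, adjusted p = 5.26e-05) and 1.61-fold with Am80 (0.69 ± 0.09, adjusted p = 5.19e-06). It rose 1.65-fold with Am80 plus LSDi-MB3 (adjusted p = 1.04e-06) and 1.26-fold with ATRA plus LSDi-MB3 (adjusted p = 0.00361). The last call was lost with quantile normalization and with scaling to total reads (0.18 on the log2 scale, adjusted p = 0.0657). Leaving out Untreated replicate 4, the 4 log2 values were 0.64 with ATRA, 0.75 with Am80, 0.40 with ATRA plus LSDi-MB3 and 0.79 with Am80 plus LSDi-MB3, all called. Adding the inhibitors gave no call on Am80 (0.03, 95% interval -0.17 to 0.24) and a fall of -0.24 on ATRA (adjusted p = 0.042). The fall was not called without ATRA replicate 2 or 3, without any 1 of the ATRA plus LSDi-MB3 libraries, or without Am80 plus LSDi-MB3 replicate 2, and adjusted p-values ran from 0.000787 to 0.893 over the alternatives. CDKN1A overlaps exons of DINOL on the other strand.

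The GADD45 genes encode small stress sensors that bind p21, cyclin B1 and upstream kinases of the JNK and p38 pathways. GADD45B, which is also a target of NF-kappaB and TGF-beta signaling, had 545, 490, 509 and 653 normalized counts in Untreated, 659, 631 and 760 with ATRA and 807, 649 and 811 with Am80. It had 433, 490 and 471 with ATRA plus LSDi-MB3 and 637, 566 and 575 with Am80 plus LSDi-MB3. The retinoid and untreated ranges overlapped through the highest untreated library, replicate 4, and each combination lay below its retinoid without overlap. GADD45B rose by 0.32 ± 0.10 with ATRA (adjusted p = 0.025) and by 0.46 ± 0.10 with Am80 (adjusted p = 0.00153), on the log2 scale, and without Untreated replicate 4 the values were 0.40 and 0.55. On adding the inhibitors it fell by 0.55 ± 0.11 on ATRA (adjusted p = 0.000312) and by 0.34 ± 0.11 on Am80 (adjusted p = 0.0158). The ATRA rise was lost without Untreated replicate 2 or 3 or ATRA replicate 1 or 3 (adjusted p from 0.00146 to 0.151 over the alternatives). The fall on Am80 was lost without Am80 replicate 1 or 3 or Am80 plus LSDi-MB3 replicate 2 or 3 (adjusted p from 0.000834 to 0.0748). With ATRA plus LSDi-MB3 it stood at -0.23 against Untreated (adjusted p = 0.0525), which was called without Untreated replicate 2 or 3 or Am80 replicate 2.

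GADD45A, the DNA damage-responsive member of the family, was not called in any of the 9 comparisons with the deposited normalization. It ran from 272 to 381 normalized counts in Untreated (median 317) and from 250 to 346 in the 12 treated libraries, and every pair of groups overlapped. Its log2 fold changes against Untreated lay between -0.20 and -0.07, with 95% intervals from -0.46 at the lowest to 0.19 at the highest. GADD45G, the third gene of the family, had at most 12 reads in any library and fell below the filter. The 3 family members thus ran apart, with a response to the retinoids in GADD45B, no call in GADD45A and hardly any reads in GADD45G.

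RRM2B encodes the p53-inducible small subunit of ribonucleotide reductase, which supplies deoxynucleotides for repair outside S phase. It had 2481, 2645, 2512 and 2313 normalized counts in Untreated, 2267, 1931 and 2284 with ATRA and 2358, 2740 and 2212 with Am80. The inhibitors brought it to 3943, 3923 and 3604 on ATRA and 3631, 3682 and 3574 on Am80. As for MDM2, all 6 combination libraries lay above all 10 others. RRM2B rose 1.54-fold with ATRA plus LSDi-MB3 against Untreated (0.62 ± 0.08, adjusted p = 6.93e-07) and 1.46-fold with Am80 plus LSDi-MB3 (0.55 ± 0.08, adjusted p = 3.89e-06), and without Untreated replicate 4 the log2 values were 0.59 and 0.51. On adding the inhibitors it rose 1.77-fold on ATRA (adjusted p = 1.13e-07) and by 0.58 ± 0.08 on the log2 scale on Am80 (adjusted p = 1.04e-05). With ATRA alone it stood at -0.21 (adjusted p = 0.0529), and every ATRA library lay below every untreated one. It was called lower without Untreated replicate 4 (-0.24, adjusted p = 0.0188) and without Am80 replicate 2 or 3. It was also called lower by edgeR, with quantile normalization, with a filter at a mean of at least 50 and with a replicate block. The same held with the length or the GC trend removed, as described below. Adjusted p-values for it ran from 0.00179 to 0.302 over the alternatives.

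SESN1 encodes a sestrin, a leucine-responsive inhibitor of mTORC1 with a role in the defence against oxidants. It had 1149, 1089, 1229 and 1263 normalized counts in Untreated, 924, 914 and 976 with ATRA and 1144, 1102 and 1033 with Am80. It had 1215, 1271 and 1303 with ATRA plus LSDi-MB3 and 1185, 1337 and 1197 with Am80 plus LSDi-MB3. The ATRA libraries were below all the others. SESN1 fell by 0.33 ± 0.07 on the log2 scale with ATRA (adjusted p = 0.000957) and rose by 0.43 ± 0.07 on adding the inhibitors to it (adjusted p = 7.82e-05), which brought it back to the untreated level within the spread (0.10, 95% interval -0.05 to 0.24). The value with ATRA without Untreated replicate 4 was -0.30 (adjusted p = 0.00169). With Am80 it stood at -0.11 (adjusted p = 0.239), and the inhibitors gave 0.18 on Am80 (adjusted p = 0.0556, called without Untreated replicate 4). SESN1 overlaps exons of AL390208.1 on the other strand.

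The other sestrins moved in another way. SESN3, which is best known as a FOXO target, had 3652, 3629, 3739 and 2748 normalized counts in Untreated, 6321, 5785 and 6057 with ATRA, and 6342, 7117 and 5875 with Am80. It had 10621, 11240 and 10441 with ATRA plus LSDi-MB3 and 10010, 10100 and 10223 with Am80 plus LSDi-MB3. The untreated, retinoid and combination libraries formed 3 steps with no overlap between them. SESN3 rose by 0.82 with ATRA (adjusted p = 2.73e-07) and 0.91 with Am80 (adjusted p = 5.79e-08) on the log2 scale, and by a further 0.83 (adjusted p = 6.5e-07) and 0.65 (adjusted p = 1.39e-05) on adding the inhibitors. The retinoid values without Untreated replicate 4 were 0.72 and 0.81. SESN2, a target of both p53 and ATF4 that was picked for mention after its values were seen, had a mean of 534 ± 24.6 in Untreated, 695 ± 40.1 with ATRA plus LSDi-MB3 and 936 ± 62.3 with Am80 plus LSDi-MB3. It rose on adding the inhibitors, by 0.40 on ATRA (adjusted p = 0.00135) and 0.90 on Am80 (adjusted p = 2.37e-07), and was not called with either retinoid alone (-0.02 and -0.09).

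ZMAT3 encodes a zinc finger protein that binds RNA and affects splicing and transcript stability downstream of p53. It had 491, 524, 562 and 352 normalized counts in Untreated, 488, 450 and 442 with ATRA and 408, 527 and 448 with Am80. It had 659, 612 and 641 with ATRA plus LSDi-MB3 and 501, 491 and 542 with Am80 plus LSDi-MB3. The ATRA combination was above every other library, and the Am80 combination overlapped Untreated and Am80. ZMAT3 rose by 0.42 ± 0.12 with ATRA plus LSDi-MB3 against Untreated (log2 scale, adjusted p = 0.0045) and by 0.47 ± 0.13 against ATRA (adjusted p = 0.00467). Without Untreated replicate 4 the first value was 0.28 (adjusted p = 0.00843). The Am80 combination gave 0.10 against Untreated (adjusted p = 0.48) and 0.16 against Am80 (adjusted p = 0.349).

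FDXR encodes ferredoxin reductase, a mitochondrial enzyme of steroid, heme and iron-sulfur cluster metabolism. It had 838, 816, 719 and 1010 normalized counts in Untreated, 738, 761 and 717 with ATRA and 838, 596 and 853 with Am80. It had 641, 698 and 643 with ATRA plus LSDi-MB3 and 834, 797 and 775 with Am80 plus LSDi-MB3. The groups overlapped for the most part, and only ATRA plus LSDi-MB3 was below all untreated libraries. FDXR fell by 0.35 ± 0.11 on the log2 scale in that comparison (adjusted p = 0.0103), and by 0.26 without Untreated replicate 4 (adjusted p = 0.0308). It was not called in any other comparison.

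Am80 and ATRA, at the same concentration and time, gave responses of the 9 genes that were not told apart by the fit of all groups. None of the 9 genes was called by limma between Am80 and ATRA, where 0.239% of the genes tested were called in either direction. None was called between the 2 combinations or in the interaction of retinoid and inhibitors, where 0% of the genes tested were called in each. With 9 genes compared in each of these 3 comparisons and p-values adjusted over all genes tested, the smallest adjusted p among the 9 was 0.179, 0.119 and 0.281, in that order. At an unadjusted p under 0.05 there were 2 of the 9 genes between the retinoids (SESN1 and RRM2B), beside 2042 of the 14643 genes tested. Between the combinations there were 4 (CDKN1A, GADD45B, ZMAT3 and FDXR), beside 2656. In the interaction there were 2 (SESN1 and RRM2B), beside 2211. By edgeR none of the 9 was called in these 3 comparisons, beside 88, 0 and 0 over all genes. By DESeq2 there was 1, CDKN1A, between the combinations, where 109 were called over all genes. The 95% intervals of the difference Am80 minus ATRA ran from -0.55 at the lowest (MDM4) to 0.38 at the highest (GADD45A) on the log2 scale, so that a difference of that size is not excluded for these genes. ATRA and Am80 differ in structure and in receptor selectivity, Am80 being a synthetic amide-linked retinoid.

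Between the combinations, the position of CDKN1A was the widest gap. It was 0.39 higher with Am80 plus LSDi-MB3 than with ATRA plus LSDi-MB3 on the log2 scale (95% interval 0.19 to 0.59, adjusted p = 0.119), without overlap of the libraries. The call changed with the libraries in the fit. Without Untreated replicate 4, which enters only through the shared estimate of the spread, 4 of the 9 genes were called between the combinations. These were CDKN1A and GADD45B higher with Am80 (adjusted p = 0.027 and 0.0376) and MDM4 and ZMAT3 lower (-0.31 and -0.32, adjusted p = 0.027 and 0.0424), with adjusted p-values for CDKN1A between 0.000753 and 0.492 over all alternatives. Without Am80 replicate 2, 1 gene was called, CDKN1A. Between Am80 and ATRA alone, 1 gene was called without Untreated replicate 4, MDM4, which was lower with Am80 (-0.24, adjusted p = 0.0453). Without that library, gene lists read below also had calls between the combinations. These were 3 of 33 further p53 targets, 1 of 18 cell cycle genes and 5 of 10 ATF4 stress genes, all higher with Am80. Of 24 regulators of p53, 0 were called. The share of all genes called in these fits is not given here, so the counts are not read as particular to the 9 genes.

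The changes on adding the inhibitors moved with GC content and with transcript length over all genes, and on ATRA they moved more with GC content. Adding the inhibitors to ATRA gave a median log2 change of 0.23 for the 5398 genes with a transcript GC content under 45% and of -0.35 for the 4084 genes over 55%. On Am80 the medians were 0.07 and -0.10. Genes with over 5 kb of exon had medians of 0.07 on ATRA and 0.05 on Am80, and genes under 2 kb had -0.11 and -0.11. Of the 9 genes, the 5 that were called higher on ATRA have a GC content between 36.4% (RRM2B) and 43.4% (SESN1). CDKN1A, GADD45B and FDXR have 58.0%, 59.6% and 61.8%. The values were therefore also computed with a smooth trend on each property taken out of every library, a step chosen after seeing the data.

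With the GC trend removed, MDM2 rose by 0.70 on adding the inhibitors to ATRA (adjusted p = 3.73e-05) and by 0.66 on Am80 (adjusted p = 5.88e-05). RRM2B rose by 0.48 (adjusted p = 2.44e-07) and 0.46 (adjusted p = 2.61e-07). GADD45B fell by 0.25 on ATRA (adjusted p = 0.0247) and 0.26 on Am80 (adjusted p = 0.0184), and SESN1 rose by 0.25 on ATRA (adjusted p = 0.00844). The calls of MDM4 (0.27, adjusted p = 0.119) and ZMAT3 (0.18, adjusted p = 0.184) on ATRA were lost, as were those of MDM4 on Am80 (0.33, adjusted p = 0.0548) and of MDM4 (0.28, adjusted p = 0.0735) and ZMAT3 (0.14, adjusted p = 0.218) with ATRA plus LSDi-MB3 against Untreated. The fall of CDKN1A on ATRA was gone (0.01, adjusted p = 0.893). FDXR turned from -0.16 to 0.21 (adjusted p = 0.033). Against Untreated, the rise of CDKN1A held in all 4 treatments, from 0.57 with ATRA to 0.85 with Am80 plus LSDi-MB3, and its value with ATRA plus LSDi-MB3 was 0.58 (adjusted p = 3.41e-07). With the length trend removed, the rises of MDM2 and RRM2B on adding the inhibitors were 0.78 and 0.81 on ATRA and 0.61 and 0.57 on Am80, all called. The length trend also ended the calls of MDM4 on Am80 (0.30, adjusted p = 0.0527) and of CDKN1A on ATRA (-0.16, adjusted p = 0.093).

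**Figure D3:**
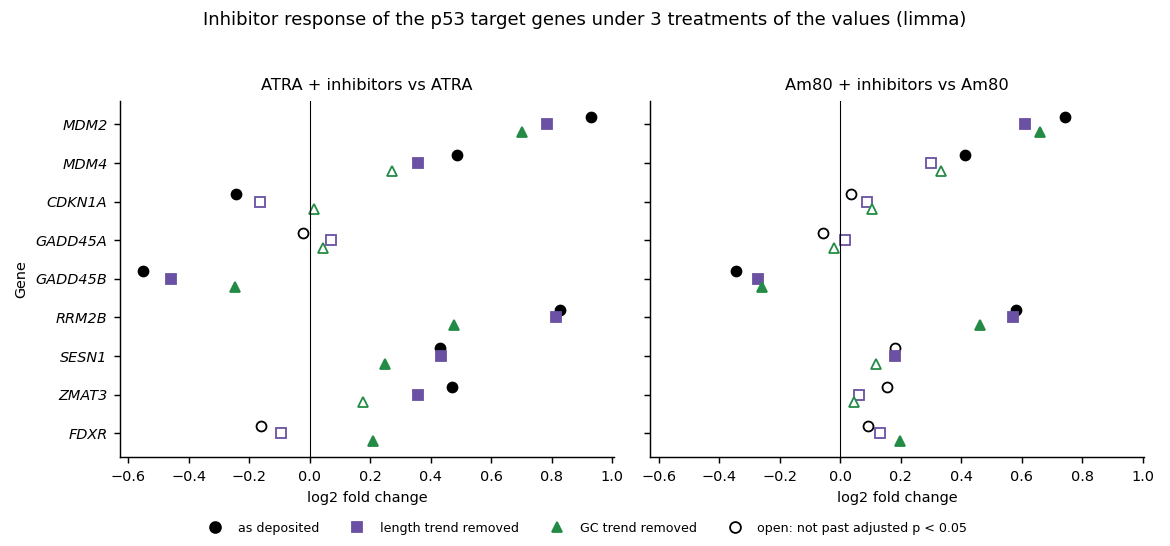
Log2 fold change (x axis) of each p53 target gene (y axis) on adding the inhibitors to ATRA (left) and Am80 (right), for the deposited values (circles) and with a length (squares) or GC (triangles) trend removed from every library; filled symbols passed an adjusted p of 0.05. MDM2 and RRM2B stayed on the right and filled in all 3 cases, whereas CDKN1A and FDXR on ATRA crossed 0 with the GC trend removed.

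Further targets of p53 were read from a list of 36 genes, of which 33 passed the filter. With ATRA, 5 were called higher and 3 lower, and with Am80 8 higher and 4 lower, beside 12.5% and 12.1%, and 15.4% and 13.4%, of all genes. With ATRA plus LSDi-MB3 there were 15 higher and 7 lower, and with Am80 plus LSDi-MB3 17 higher and 8 lower, beside 30.2% and 30.0%, and 28.0% and 26.6%, of all genes. On adding the inhibitors there were 17 higher and 5 lower on ATRA and 13 higher and 6 lower on Am80, beside 24.9% and 24.4%, and 19.9% and 19.5%. The medians of the list were -0.07 and -0.04 with the retinoids, 0.14 and 0.23 with the combinations, and 0.22 and 0.21 on adding the inhibitors, each beside a median of all genes between -0.02 and 0.00. Without Untreated replicate 4 the combinations gave 16 higher and 7 lower on ATRA and 19 higher and 6 lower on Am80.

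The further targets with the smallest p-values in retinoid alone were TP53I3, DRAM1 and GDF15 with both retinoids, then BTG2 with ATRA and CCNG1 with Am80. TP53I3, a quinone oxidoreductase, had a mean of 119 ± 13.4 normalized counts in Untreated, 471 ± 26.9 with ATRA and 472 ± 54.5 with Am80. It rose by 1.98 and 1.97 on the log2 scale (adjusted p = 1.48e-12 and 1.57e-12). It was lower with the inhibitors than without them, at 291 ± 18.6 on ATRA and 354 ± 18.6 on Am80. DRAM1, a lysosomal regulator of autophagy, went from 246 ± 27.9 to 610 ± 20.7 with ATRA and 737 ± 24.7 with Am80, rises of 1.32 and 1.59. TP53I3 rose by 2.04 with each retinoid and DRAM1 by 1.38 and 1.65 without Untreated replicate 4. CCNG1, cyclin G1, rose by 0.73 with Am80 (adjusted p = 1.79e-07), and BTG2, an antiproliferative cofactor of mRNA deadenylation, rose by 0.48 with ATRA (adjusted p = 5.58e-05).

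GDF15, a secreted stress cytokine that also answers to ATF4, stood out in the combinations. It had 23.7, 16.6, 21.2 and 48.7 normalized counts in Untreated, 121, 140 and 147 with ATRA and 168, 111 and 144 with Am80. It reached 522, 640 and 474 with ATRA plus LSDi-MB3 and 950, 898 and 677 with Am80 plus LSDi-MB3. The groups stepped up without overlap from Untreated to retinoid to combination. On the log2 scale it rose by 2.38 and 2.41 with the retinoids and by 4.36 and 4.99 with the combinations (adjusted p = 3.44e-12 and 3.29e-13). When Untreated replicate 4, its highest untreated library, was left out, these values were 2.68, 2.72, 4.67 and 5.29. The 10 ATF4 stress genes, to which SESN2 and GDF15 do not belong here, had 6 higher and 1 lower with ATRA plus LSDi-MB3 and 9 higher and none lower with Am80 plus LSDi-MB3, with medians of 0.43 and 0.80, where 30.2% and 30.0%, and 28.0% and 26.6%, of all genes were called. Their part in the p53 target results was not tested.

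On adding the inhibitors, the smallest p-values in the list belonged to FAS, PMAIP1 and TNFRSF10B with both retinoids, then to TIGAR on ATRA and GDF15 on Am80. FAS, the CD95 death receptor, had 456, 475, 451 and 491 normalized counts in Untreated, 336, 298 and 344 with ATRA and 354, 384 and 295 with Am80, so that both retinoids lay below Untreated. It had 822, 975 and 852 with ATRA plus LSDi-MB3 and 823, 884 and 841 with Am80 plus LSDi-MB3, above every other library. FAS thus fell with the retinoids (-0.52, adjusted p = 0.000131, and -0.45, adjusted p = 0.000561, or -0.50 and -0.43 without Untreated replicate 4) and rose by 1.43 and 1.31 on adding the inhibitors (adjusted p = 5.79e-10 and 1.79e-09). PMAIP1, the BH3-only protein NOXA, went from 374 ± 43.0 to 1105 ± 179 on ATRA and from 490 ± 55.1 to 1357 ± 129 on Am80, rises of 1.56 and 1.47. TNFRSF10B, the TRAIL receptor DR5, rose by 0.66 and 0.81, and TIGAR, a regulator of glycolysis, rose by 1.33 on ATRA (adjusted p = 1.45e-07). With the GC trend removed, these 4 genes were still called higher on both retinoids, FAS at 1.13 and 1.20 and PMAIP1 at 1.22 and 1.35.

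**Figure D4:**
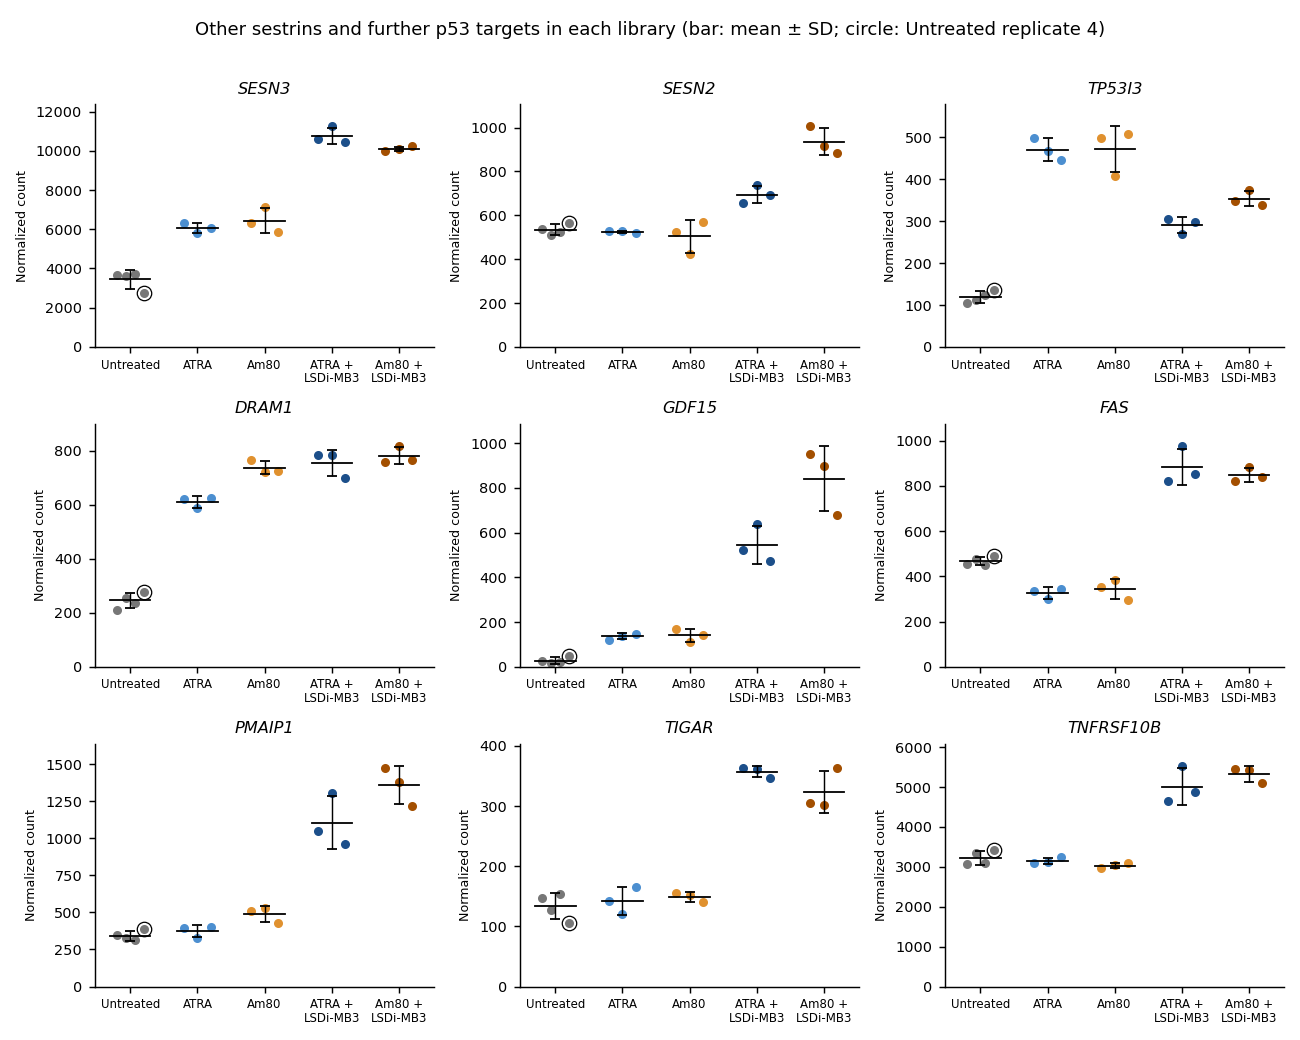
Normalized count (y axis, linear from 0) in each library by group (x axis) of the other sestrins SESN3 and SESN2 and of 7 further p53 targets; points are libraries, lines and bars the group mean ± SD, and the circle marks Untreated replicate 4. TP53I3 was highest with the retinoids alone, FAS was lowest with them, and GDF15, PMAIP1, TIGAR and TNFRSF10B were highest in the 6 combination libraries.

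Among 24 regulators of p53, all of which passed the filter, 6 were called higher and 2 lower with ATRA and 7 higher and 1 lower with Am80, beside 12.5% and 12.1%, and 15.4% and 13.4%, of all genes. The combinations gave 12 higher and 4 lower on ATRA and 13 higher and 3 lower on Am80, beside 30.2% and 30.0%, and 28.0% and 26.6%. Adding the inhibitors gave 12 higher and 2 lower on ATRA and 11 higher and 3 lower on Am80, beside 24.9% and 24.4%, and 19.9% and 19.5%. HIPK2, a kinase that phosphorylates p53, rose by 1.40 with ATRA (adjusted p = 9.72e-08) and 1.21 with Am80 (adjusted p = 7.8e-07), from a mean of 2696 ± 699 in Untreated to 6904 ± 255 and 6057 ± 51.1. Its rise with ATRA without Untreated replicate 4 was 1.19 and that with Am80 was still called (adjusted p = 5.17e-12). SETD7, a lysine methyltransferase, fell by 0.42 with ATRA and 0.51 with Am80. SIRT1, which deacetylates p53, rose by 0.31 with ATRA (adjusted p = 0.00142) and 0.41 with Am80 (adjusted p = 6.98e-05), or 0.28 and 0.38 without Untreated replicate 4, and RCHY1, a ubiquitin ligase for p53, rose by 0.44 with Am80. KMT5A, a methyltransferase, rose by 0.28 with ATRA.

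On adding the inhibitors, SIRT1 rose by 0.71 on ATRA (adjusted p = 1.69e-07) and 0.52 on Am80 (adjusted p = 8.63e-06). The kinase gene CSNK1A1 rose by 0.44 and 0.43, and RCHY1 by 0.57 on ATRA. The acetyltransferase gene CREBBP rose by 0.86 on Am80 (adjusted p = 1.42e-05), from 2313 ± 110 to 4206 ± 231. TP73, a relative of p53, fell by 1.01 on ATRA (adjusted p = 1.55e-05) and 0.97 on Am80 (adjusted p = 3.05e-05), to 151 ± 21.1 and 140 ± 4.76. With the GC trend removed, the call of CSNK1A1 on ATRA was lost (0.15, adjusted p = 0.0784) and the list had 9 higher and 3 lower on ATRA.

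Cell cycle genes that are known to be repressed downstream of p21 were called in both directions, at shares near those of all genes in the combinations. Of 18 such genes, 1 was called higher and 2 lower with ATRA, 3 and 1 with Am80, 5 and 6 with ATRA plus LSDi-MB3, and 5 and 3 with Am80 plus LSDi-MB3. Over all genes, the shares were 12.5% and 12.1%, 15.4% and 13.4%, 30.2% and 30.0%, and 28.0% and 26.6%, in that order. The medians against Untreated lay between -0.03 and 0.07.

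Over the 4 log2 fold changes against Untreated, MDM2, RRM2B and MDM4 had the widest range among the 9 genes. The genes of at least 50 mean normalized counts whose 4 values lay nearest were RC3H2 and VPS26A for MDM2 (root mean square difference 0.03 and 0.06), SCARB2, ZNF420 and SLC39A10 for RRM2B (0.04 each), and VCAN for MDM4 (0.05), out of 11300 genes compared, beside 3 genes without a symbol in the tables used. The 4 values share their untreated libraries.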

How the data were processed

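Reads of OCI-AML3 RNA-seq libraries were trimmed, aligned and counted by the authors. The submitters' processing notes name FastQC, cutadapt, STAR, featureCounts and DESeq2 without versions. Genome build, annotation release and counting strand are not given in the sources used here. The labels name the NucleoSpin and NEBNext Ultra II DNA kits and the study's methods the ZR RNA MiniPrep and TruSeq Stranded mRNA kits. The authors deposited a signal table of DESeq2-normalized counts, that is, reads divided by the size factor of the library. In all 16 libraries 100% of the values were whole reads (within 0.01 reads), and these recovered reads were used for edgeR and DESeq2. In 18 replicate pairs the counts differed by a chi-square of 2.76 to 25.9 per degree of freedom, so that no library was counted as a duplicate.

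Identifiers were matched to symbols by gene ID and to GENCODE v29 (GRCh38) for exon lengths, GC content and overlaps. The test was limma 3.58.1 (R 4.3.3) on log2(normalized count + 1) over 14643 genes (mean normalized count 10 or more), with 1 coefficient per group, a mean-variance trend and Benjamini-Hochberg adjustment within each of 9 comparisons. Fold changes are on that scale, which understates the change of low genes. A gene was called at an adjusted p under 0.05, with no fold limit. The alternatives were edgeR 4.0.16, DESeq2 1.42.0, pseudocounts of 0.5 and 5, no filter or a mean of at least 50, quantile normalization, total reads, only the groups compared, a replicate block, each library left out, a 1.5-fold limit, and an adjusted p under 0.01 with a 2-fold limit. Trends on exon length and GC content (splines with 5 degrees of freedom, 14293 genes with a value) were added after seeing the data. Figures used Python with matplotlib. The fits were tested on simulated data. The genes named are the 9 members and, of further targets and regulators, up to 4 called genes with the smallest p per comparison. SESN3 and GADD45G were read as family members. The members and lists were chosen with earlier results of these data known. The gene that encodes p53 itself is not reported here. In bulk RNA, fewer cells with a transcript and less RNA per cell cannot be told apart.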

Additional observations from a re-analysis of the deposited data

Results flagged for a closer look

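Among the 4 untreated libraries, the only group large enough for such a reading, replicate 4 was far below the other 3 for 2 of the 9 genes and for SESN3. Its gap to the nearest other library made up 0.877 of the whole range of the group for MDM2, 0.939 for MDM4 and 0.889 for SESN3. Chance flags about 1 in 20 groups, and 10 genes were read in this way on the same 4 libraries.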

How the results depend on the processing

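The counts of called genes among the 9 moved as follows. Unless stated, the share of all genes called under a setting is not given in this section. The counts are therefore not read as particular to the 9 genes. A 1.5-fold limit left 0 with ATRA, 1 with Am80, 2 with ATRA plus LSDi-MB3, 2 on adding the inhibitors to ATRA and 1 on adding them to Am80. An adjusted p under 0.01 with a 2-fold limit left 0 with either retinoid and on adding the inhibitors to either, and 1 with each combination. Scaling to total reads gave 5 with Am80 plus LSDi-MB3 in place of 3 (GADD45A and FDXR lower were gained), and on adding the inhibitors to ATRA it ended the calls of MDM4 (0.34) and ZMAT3 (0.32). With the GC trend removed, ATRA plus LSDi-MB3 gave 3 in place of 6, FDXR turned to 0.0403 in that comparison (from -0.35), and on adding the inhibitors to ATRA CDKN1A turned to 0.0139 and FDXR to 0.21. The causes were not tested.

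Between the combinations, DESeq2 called 1 p53 target gene, CDKN1A, beside 109 genes in the whole table. A fit of only the groups compared called 5 p53 target genes. Its count over the whole table is not given here, so the 5 are not read as particular to these targets. The same replicate numbers do not pair the libraries: over 30 pairs of libraries with the same number the median correlation of deviations was -0.01 (4 above 0.1). With a replicate block, 5 genes were called with ATRA against Untreated, 1 between Am80 and ATRA and 4 between the combinations. Only Untreated has a replicate 4, so the block also sets that library aside. These counts are the same as without it and are no separate support.

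Leaving out 1 library at a time gave 2 to 5 genes with ATRA, 2 to 3 with Am80, 6 to 7 with ATRA plus LSDi-MB3, 3 with Am80 plus LSDi-MB3, 6 to 7 on adding the inhibitors to ATRA, 2 to 5 on adding them to Am80, 0 to 1 between the retinoids, 0 to 4 between the combinations and 0 in the interaction. The 5 with ATRA and the 4 between the combinations came without Untreated replicate 4. The 2 with ATRA came without Untreated replicate 2 or 3 or ATRA replicate 1 or 3. The 2 on adding the inhibitors to Am80 came without Am80 replicate 1 or 3 or Am80 plus LSDi-MB3 replicate 2 or 3. The rises of MDM2 and RRM2B on adding the inhibitors were called under every alternative without a fold limit. Each treated group had 3 libraries, and the genes counted here had 194 reads or more in every library. Whether the spread between libraries limits these comparisons more than counting error was not tested.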
